A study of Mus musculus with 9 samples.

Results

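The 7 mature miRNAs described here are miR-126-3p, miR-126-5p, miR-143-3p, miR-145-5p, miR-199a-3p, miR-199a-5p and miR-214-3p, which were taken by name as miRNAs of endothelium, smooth muscle and stellate cells, with identical copies merged. They were set against 412 miRNA entries located in the same alignment files, which is the whole set tested. Outside the members, shifted starts and precursor copies of a miRNA are separate entries, as listed by the study. Shifted starts of miR-126-3p and miR-143-3p are among them. Shares over all entries therefore give more weight to miRNAs with several entries. The study compared small RNA-seq library preparations in MIN6, a mouse insulinoma line used as a model of the pancreatic beta cell, and in mouse liver. MIN6 was grown in high-glucose medium with heat-inactivated fetal bovine serum, and the liver came from 1 adult female C57BL/6J mouse, a saline-injected control that was fasted overnight. MIN6 was represented by 3 TruSeq libraries and 3 Illumina v1.5 libraries, all sequenced on a GAIIx, and by 1 NEXTflex library sequenced on a HiSeq. Liver was represented by 1 TruSeq and 1 NEXTflex library, both made from the same RNA and sequenced on a HiSeq, and no v1.5 library of liver was among these samples. TruSeq and v1.5 ligate adapters of fixed sequence, whereas NEXTflex adapters carry degenerate bases at the ligation boundary that are trimmed afterwards. Per the methods, RNA of the GAIIx libraries was extracted with TRIzol and liver RNA with a column kit, so in the TruSeq contrast the tissue cannot be told apart from the platform or the extraction. The NEXTflex MIN6 library was made from RNA that also gave a TruSeq HiSeq library, which was not analysed here, and the liver libraries represent 1 animal.

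The mature miRNAs of a precursor are cut from the 5′ (5p) and 3′ (3p) arms of its hairpin, and 1 or both arms are loaded into Argonaute, where the seed (bases 2 to 8) directs pairing to target mRNAs. miR-126 is the best known miRNA of endothelial cells and is encoded within the endothelial gene Egfl7, where it acts on VEGF signalling and vessel integrity. miR-143 and miR-145 are made from 1 primary transcript and are known for the contractile state of vascular smooth muscle. miR-199a and miR-214 are made from the Dnm3os transcript in mesenchymal cells and are known in liver for activated stellate cells and fibrosis.

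The sequences of the members whose arm choice or start site the results turn on are shown first, from RefSeq on GRCm38.p6, with the seed in capitals.
miR-126-3p: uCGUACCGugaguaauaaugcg
miR-199a-3p: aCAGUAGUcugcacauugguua
miR-199a-5p: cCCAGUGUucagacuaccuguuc
miR-214-3p: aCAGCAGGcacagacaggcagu
These 4 miRNAs have 4 different seeds. Reads also began 1 nt later on miR-126-3p and 1 nt earlier on miR-214-3p, which moves the seed window, and those forms are shown to the same 3′ end.
miR-126-3p, start +1: cGUACCGUgaguaauaaugcg
miR-214-3p, start -1: uACAGCAGgcacagacaggcagu

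The hairpins of miR-126 and miR-214 are shown next, because the comparison of arms and starts rests on them, with the stretches most often read in TruSeq liver in capitals (5p first).
Mir126a: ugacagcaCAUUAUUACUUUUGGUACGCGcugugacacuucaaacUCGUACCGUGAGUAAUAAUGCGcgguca
Mir214: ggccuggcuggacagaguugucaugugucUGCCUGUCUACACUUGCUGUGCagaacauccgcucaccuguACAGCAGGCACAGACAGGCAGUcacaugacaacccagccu
Mir126a lies at chr2:26591357-26591429 on the plus strand of GRCm38, within Egfl7 on the same strand, and overlaps an exon of one of its annotated transcripts. Mir214 lies at chr1:162223368-162223477 and Mir199a-2 at chr1:162217814-162217923, both in an exon of Dnm3os and opposite to an intron of Dnm3. Mir199a-1, at chr9:21496495-21496564, is opposite to an intron of Dnm2, and Mir199b, at chr2:32318460-32318569, is opposite to an intron of Dnm1.

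A level is the weight of all reads that begin exactly at the reference 5′ end, expressed as reads per 1000000 mapped reads of the library (RPMM). The 3 loci that give the same miR-199a-3p read (Mir199a-1, Mir199a-2 and Mir199b) were summed, as were the 2 loci of miR-199a-5p. Of the 7 members 5, namely miR-126-3p, miR-126-5p, miR-143-3p, miR-145-5p and miR-199a-3p, were located from the study's lists of abundant miRNAs, of which 2 (both arms of miR-126) were on the MIN6 list. miR-199a-5p and miR-214-3p were on neither list and were located by their distance from the 3p start of the miR-199 hairpins. Where a read base differed from the genome, it never equalled the RefSeq hairpin base at the position so located, for any of the 10 arms checked.

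The deposited counts summed to between 6923460 and 13158853 reads per library in TruSeq and v1.5 MIN6, 25638871 in NEXTflex MIN6, 17875869 in TruSeq liver and 14426009 in NEXTflex liver. Reads were 14 to 41 nt long. The NEXTflex libraries stood apart in how reads were stacked. Of the groups of reads mapped to 1 position only, 19.9% held a single read in NEXTflex MIN6 and 17.6% in NEXTflex liver, against 60.7% to 72.1% in the other 7 libraries, and the median group held 31 and 53 reads against 1. Intervals and floors given below cover counting error only, since reads without molecular identifiers are not independent molecules, and the part of this stacking in the NEXTflex values was not tested. Positions with a single read were still present in both NEXTflex tables, but whether rare reads were removed before deposit is not given in the sources used here. The limits set by a count of 0 in NEXTflex libraries hold only if they were not.

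Markers of the main cells mostly went with the labels, though the marker lists were chosen with earlier results of these data known. All 12 beta cell and epithelial miRNAs (such as miR-375-3p and the miR-200 family) were over 10-fold lower in liver than in MIN6 in both preparations, where 40.5% of all 412 entries were with TruSeq and 50.2% with NEXTflex, and their summed level was 222501 to 246746 RPMM in TruSeq MIN6 against 1064 RPMM in TruSeq liver. Of 6 hepatocyte miRNAs, 5 were over 10-fold higher in TruSeq liver and 4 in NEXTflex liver, against 15.3% and 12.4% of all entries. Over the study's list of abundant liver miRNAs the shares were 34.1% and 27.3%. miR-802-3p went the other way with NEXTflex and was over 10-fold lower in liver, at 0 against 15.02 RPMM in MIN6. miR-122-5p, the best known hepatocyte miRNA, was at 17244 RPMM in TruSeq liver and 532452 RPMM in NEXTflex liver, against a mean of 0.390 RPMM in TruSeq MIN6 and 128 RPMM in NEXTflex MIN6. The liver also held blood cell miRNAs: the 5 of 8 that were listed all had a ratio of liver to MIN6 above 1 in both preparations, 4 of them over 10-fold in each (15.3% and 12.4% of all entries, and 34.1% and 27.3% of those on the study's list of abundant liver miRNAs), with a summed level of 10823 RPMM in TruSeq liver and 3344 RPMM in NEXTflex liver against at most 495 and 637 RPMM in MIN6. The share of blood or vessel cells in the liver sample was not measured, and in bulk RNA fewer cells of a type and less RNA per cell cannot be told apart.

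All 7 members were over 10-fold higher in liver than in MIN6 with TruSeq, and 6 of 7 were with NEXTflex, when 1 RPMM was added to both levels. Over all 412 entries, 15.3% were that much higher in TruSeq liver and 12.4% in NEXTflex liver. The median ratio of the 7 members was 68.7 in TruSeq and 52.2 in NEXTflex, whereas over all entries it was 0.240 and 0.0968. Apart from miR-199a-5p and miR-214-3p, the 412 entries came from lists of abundant miRNAs, 356 from that of MIN6 and 176 from that of liver, with some on both. The 7 members count among the 412 entries, and miR-143-3p, miR-145-5p and miR-199a-3p were on the liver list only, so the listing itself sets part of this contrast. Over the 176 entries of the liver list, 34.1% were over 10-fold higher in TruSeq liver and 27.3% in NEXTflex liver, with median ratios of 1.90 and 1.06, and the 5 members on that list all were, with median ratios of 69.9 and 53.1. The size of these ratios depended on the scaling: TMM factors made them 2.83 to 3.02 times as large in TruSeq and 2.46 to 2.66 times in NEXTflex, and DESeq2 size factors 2.29 to 2.39 and 1.99 to 2.86 times, leaving out miR-214-3p in NEXTflex. With 1 liver library per preparation there is no replicate check of these differences and no test was made. The summed level of the 7 members was 144 to 156 RPMM in TruSeq MIN6, 276 to 301 RPMM in v1.5 MIN6 and 94.0 RPMM in NEXTflex MIN6, but 19278 RPMM in TruSeq liver and 5072 RPMM in NEXTflex liver. The plot of levels by library shows the liver points above the MIN6 points of the same preparation for every member except miR-214-3p in NEXTflex.

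**Figure D1:**
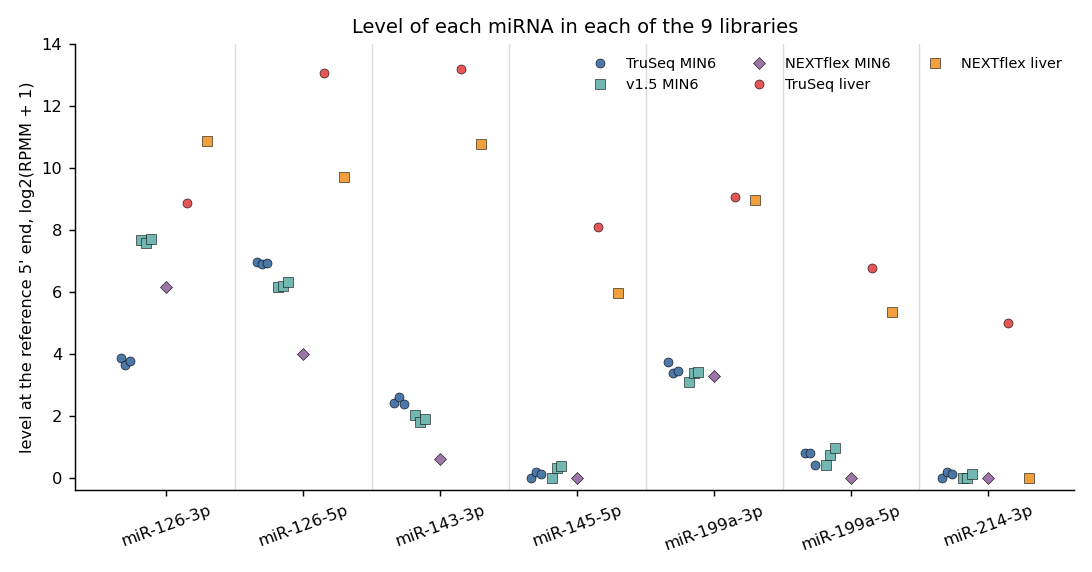
Level of each of the 7 miRNAs at its reference 5′ end, as log2(RPMM + 1), in the 9 libraries, 1 point per library, colored by group. The liver libraries are the highest of their preparation for 7 of 7 miRNAs in TruSeq and 6 of 7 in NEXTflex, and miR-126-3p and miR-126-5p change order between preparations.

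miR-126-5p, the arm of miR-126 often called the passenger, was at 125, 117 and 120 RPMM in the 3 TruSeq MIN6 libraries and at 8505 RPMM in TruSeq liver. With NEXTflex it was at 14.9 RPMM in MIN6 and 841 RPMM in liver. The liver libraries were far above the MIN6 libraries in both preparations, but the NEXTflex levels were the lower ones in both sources. The ratio of liver to MIN6 was 70.4 in TruSeq (95% counting interval 68.1 to 73.2) and 56.6 in NEXTflex (51.1 to 62.8), and 69.9 and 53.1 with 1 RPMM added.

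miR-126-3p, the arm known to act on the VEGF pathway inhibitors Spred1 and Pik3r2, was at 13.7, 11.4 and 12.6 RPMM in TruSeq MIN6 and at 463 RPMM in TruSeq liver. With NEXTflex it was at 70.0 RPMM in MIN6 and 1884 RPMM in liver. Here the NEXTflex levels were the higher ones, and liver was again above MIN6. The ratio was 36.8 in TruSeq (32.9 to 41.3) and 26.9 in NEXTflex (25.6 to 28.2). For the sum of both arms it was 67.3 in TruSeq and 32.1 in NEXTflex.

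Mir143 and Mir145a are neighbours on the minus strand of chromosome 18 in GRCm38, at 61649196-61649258 and 61647825-61647894, outside any other gene of the annotation used here. miR-143-3p, the main arm of the smooth muscle miRNA miR-143, had the largest ratio of liver to MIN6 of the 7 members in both preparations when 1 RPMM was added. It was at 4.36, 5.11 and 4.15 RPMM in TruSeq MIN6 and at 9373 RPMM in TruSeq liver, where it ranked 13 among the 412 entries. With NEXTflex it was at 0.508 RPMM in MIN6, which is 13 reads, and at 1745 RPMM in liver, where it ranked 30. The ratio was 2063 in TruSeq (1747 to 2545) and 3432 in NEXTflex (2007 to 6447), and with 1 RPMM added it was 1691 and 1158.

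miR-145-5p, which shares its primary transcript with miR-143, was at or near 0 in every MIN6 library. TruSeq MIN6 held 0, 1 and 1 reads, v1.5 MIN6 held 0, 3 and 3, and NEXTflex MIN6 held 0. The level in liver was 269 RPMM with TruSeq and 60.9 RPMM with NEXTflex, far below miR-143-3p in both. The TruSeq ratio was 3523, with a counting interval of 950 to 28367 that reflects the 2 MIN6 reads. In NEXTflex liver it was at least 519-fold higher than in MIN6, taking 3 reads as the limit that a count of 0 allows in that library.

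miR-199a-3p, an arm shared by the 3 miR-199 hairpins, was at 12.4, 9.35 and 9.82 RPMM in TruSeq MIN6 and at 528 RPMM in TruSeq liver. With NEXTflex it was at 8.64 RPMM in MIN6 and 502 RPMM in liver. In liver this was the member whose level differed least between TruSeq and NEXTflex. The ratio of liver to MIN6 was 50.2 in TruSeq (45.2 to 57.9) and 58.1 in NEXTflex (50.8 to 66.7).

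miR-199a-5p, the opposite arm, was low in MIN6, with 5, 5 and 4 reads in TruSeq, 4, 8 and 10 in v1.5 and 0 in NEXTflex. In liver it was at 109 RPMM with TruSeq and 39.4 RPMM with NEXTflex. The ratio was 181 in TruSeq (118 to 365) and at least 336 in NEXTflex by the same limit of 3 reads. In liver miR-199a-3p exceeded miR-199a-5p 4.83-fold with TruSeq and 12.7-fold with NEXTflex. The 3p level includes reads of the Mir199b hairpin and the 5p level does not, so this is not the arm ratio of miR-199a alone. No library had more 5p than 3p reads.

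miR-214-3p, encoded downstream of miR-199a-2 in Dnm3os, was the least abundant member in liver. TruSeq MIN6 held 0, 1 and 1 reads, v1.5 MIN6 held 0, 0 and 1, and NEXTflex MIN6 held 0. TruSeq liver held 510 reads at the reference start, or 30.9 RPMM, which gives a ratio of 405 with a counting interval of 109 to 3269. NEXTflex liver held 0 reads at the reference start and 437 reads, or 30.4 RPMM, beginning 1 nt upstream. The 437 reads came from 8 distinct read forms, counted by length and mismatches. With all reads within 5 nt of the start counted, liver was at 48.7 RPMM with TruSeq and 30.4 RPMM with NEXTflex, and all 7 members were then over 10-fold higher in liver in both preparations.

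**Figure D2:**
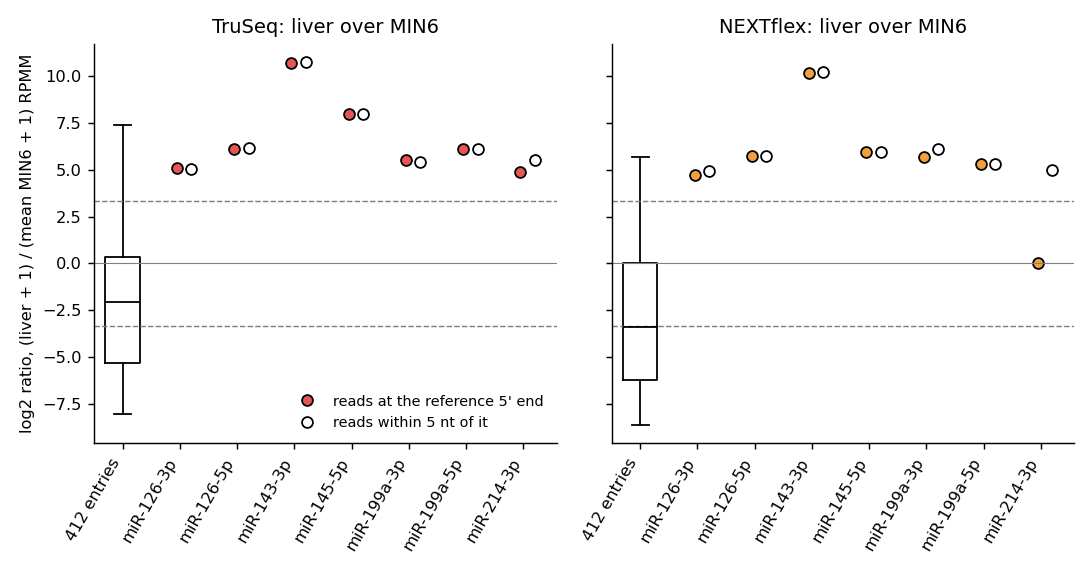
Log2 ratio of the liver level to the mean MIN6 level, with 1 RPMM added to each, for 412 entries (box, quartiles with whiskers at the 5th and 95th percentiles) and the 7 miRNAs, within TruSeq (left) and NEXTflex (right). Filled points count reads at the reference 5′ end and open points reads within 5 nt of it, the dashed lines mark 10-fold, and miR-214-3p in NEXTflex moves from 0 to 4.97 between the 2 ways of counting.

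The liver contrast was also compared between the 2 preparations for the 4 members with reads in NEXTflex MIN6. With 1 RPMM added, the TruSeq and NEXTflex ratios of miR-126-3p differed by 1.29-fold and those of miR-126-5p by 1.32-fold, with the TruSeq ratio the larger, and those of miR-199a-3p by 1.14-fold, with the NEXTflex ratio the larger. With 0.1 or 5 RPMM added these 3 kept their order and stayed within 2-fold. For miR-143-3p, with 13 reads in NEXTflex MIN6, the ratios differed by 1.46-fold with the TruSeq ratio the larger, but the NEXTflex ratio was 1.42-fold larger with 0.1 RPMM added and the TruSeq ratio 3.09-fold larger with 5 RPMM added. Of all 412 entries, 37.4% had ratios within 2-fold of each other with 1 RPMM added. The order also depended on the scaling: with TMM factors the miR-199a-3p ratios were 138.04 in TruSeq and 137.97 in NEXTflex. Those of miR-126-3p were then 103 and 70.7, and those of miR-126-5p 211 and 141. miR-145-5p, miR-199a-5p and miR-214-3p had 0 reads in NEXTflex MIN6, also within 5 nt of the start for miR-214-3p, so the added constant sets their NEXTflex ratios and they were not compared. These are single liver libraries of 1 animal, so the factors carry no biological error.

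Between TruSeq and NEXTflex libraries of the same liver RNA, 2 of the 7 members were over 10-fold lower with NEXTflex and 0 were over 10-fold higher with 1 RPMM added, against 13.1% and 4.37% of all entries. miR-126-5p was 10.1-fold lower with NEXTflex (counting interval 9.93 to 10.3) and so lay at the 10-fold line. miR-214-3p at its reference start was at least 148-fold lower, but 1.60-fold lower within 5 nt. miR-143-3p was 5.37-fold lower, miR-145-5p 4.42-fold lower and miR-199a-5p 2.77-fold lower, while miR-199a-3p differed by 1.05-fold. miR-126-3p alone was higher, by 4.07-fold. In MIN6 the same direction was seen for miR-126-3p, 5.57-fold higher with NEXTflex than the TruSeq mean, and for miR-126-5p, 8.12-fold lower, although those libraries also differ in platform and RNA. With 1 RPMM added 0 members were over 10-fold apart in that comparison, where 10.2% of all entries were over 10-fold higher and 10.7% over 10-fold lower with NEXTflex.

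In MIN6, where each kit has 3 libraries, 3 of the 7 members differed between v1.5 and TruSeq. Of all 412 entries, 86.9% differed by the same test, 51.2% higher and 35.7% lower in v1.5, so a difference is the common outcome here. miR-126-3p was at 201, 191 and 208 RPMM in v1.5 against 13.7, 11.4 and 12.6 RPMM in TruSeq, which is higher by 3.99 on the log2 scale (SE 0.08, adjusted p = 7.9e-12, by quasi-likelihood in edgeR, Benjamini-Hochberg adjusted across the 412 entries). miR-126-5p was at 70.8, 71.9 and 78.8 RPMM in v1.5 against 125, 117 and 120 RPMM, and its log2 difference was -0.71 (SE 0.06, adjusted p = 1.3e-06 by the same edgeR test). The values of the 2 kits did not overlap for either arm, and the arms moved in opposite directions.

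miR-143-3p was at 3.09, 2.51 and 2.70 RPMM in v1.5 and 4.36, 5.11 and 4.15 RPMM in TruSeq, a log2 difference of -0.69 (SE 0.18, adjusted p = 0.0046 in edgeR), which rests on 28 to 50 reads per library and had an adjusted p of 0.063 in DESeq2. For 3 of 7 members the libraries of the kits did not overlap, against 87.1% of all entries. miR-199a-3p, at 7.54, 9.39 and 9.63 RPMM in v1.5, overlapped its TruSeq values, with a log2 difference of -0.24 (95% interval -0.53 to 0.05, adjusted p = 0.16 in edgeR). With 3 of the other scalings it did pass the test, at -0.37 to -0.73. miR-145-5p, miR-199a-5p and miR-214-3p had at most 10 reads in any of these 6 libraries, and their log2 intervals were -1.39 to 3.44, -0.90 to 1.29 and -4.07 to 1.78. The study describes the 3 libraries of a kit as biological replicates, while its abstract speaks of the same batch of cells. How independent the libraries are cannot be told from these statements. The p-values weigh the kit difference against the spread between these libraries only.

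The arm of miR-126 that dominated changed with the preparation and was the same in MIN6 and liver within TruSeq and within NEXTflex. With TruSeq, 5p reads exceeded 3p reads 9.13-, 10.3- and 9.49-fold in MIN6 and 18.4-fold in liver (counting interval 18.0 to 18.8). With v1.5, 3p reads exceeded 5p reads 2.84-, 2.66- and 2.64-fold in MIN6, and with NEXTflex 4.71-fold in MIN6 (4.21 to 5.28) and 2.24-fold in liver (2.19 to 2.29). Thus 3p exceeded 5p in 5 of 9 libraries, all of them v1.5 or NEXTflex. In MIN6 the mean ratio of 3p to 5p was 2.72 ± 0.11 (SD, n = 3) in v1.5 and 0.104 ± 0.006 (SD, n = 3) in TruSeq, with p = 0.1 in a two-sided exact permutation test, which is the smallest p that 3 against 3 libraries allow. In the same liver RNA the ratio was 41.2-fold larger with NEXTflex than with TruSeq.

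**Figure D3:**
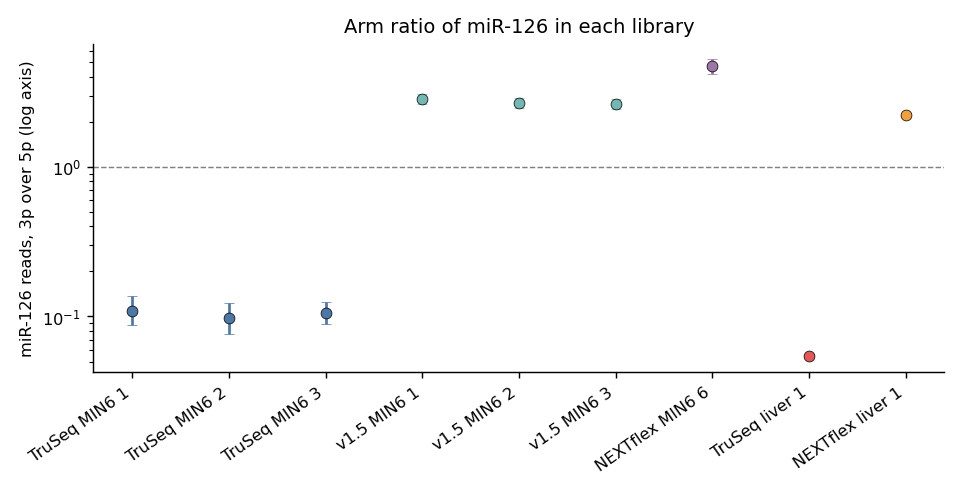
Ratio of miR-126-3p to miR-126-5p reads at their reference 5′ ends in each of the 9 libraries on a log axis, with 95% counting intervals. The 4 TruSeq libraries lie between 0.0544 and 0.110, and the 5 v1.5 and NEXTflex libraries between 2.24 and 4.71, with the dashed line at equal arms.

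The 2 arms also differed in how fixed their 5′ ends were. Of the miR-126-5p reads within 5 nt of the reference start, 98.8% began exactly there in TruSeq liver and more than that in NEXTflex liver. Of the miR-126-3p reads, 63.5% began at the reference start in TruSeq liver and 59.1% in NEXTflex liver, and 29.9% (95% exact binomial interval 29.1 to 30.7) and 40.9% (40.4 to 41.3) began 1 nt downstream, where the seed is GUACCGU and no longer CGUACCG. In MIN6 this share was 30.3%, 32.8% and 35.4% with TruSeq, 20.7%, 21.5% and 22.2% with v1.5 and 33.1% with NEXTflex. The v1.5 shares were all below the TruSeq shares, 21.4% ± 0.8 against 32.9% ± 2.5 (SD, n = 3 each, two-sided exact permutation p = 0.1, the smallest possible). Starts 1 nt upstream made up 6.38% of the reads in TruSeq liver, while 0 of 45844 NEXTflex liver reads began there. That count allows a share of up to 0.00654% by the limit of 3 reads and 0.00805% by the exact binomial interval.

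miR-199a-3p reads were spread over 3 starts. In TruSeq liver 12.9% began 1 nt upstream, 79.2% at the reference start and 7.69% 1 nt downstream, and in NEXTflex liver the shares were 6.43%, 75.3% and 18.2%. In NEXTflex MIN6 all 221 reads began at the reference start, whereas in TruSeq MIN6 69.6% to 77.4% did. miR-214-3p began 1 nt upstream for 34.7% of reads (31.3 to 38.0) in TruSeq liver and for all 437 reads in NEXTflex liver. Those 437 reads came from 8 distinct read forms, against 55 forms for the same start and 60 at the reference start in TruSeq liver. The 221 miR-199a-3p reads in NEXTflex MIN6 came from 5 forms, so few forms set both shares. miR-143-3p, miR-145-5p and miR-199a-5p began at the reference start for 98.0%, 98.5% and 98.6% of reads in TruSeq liver.

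**Figure D4:**
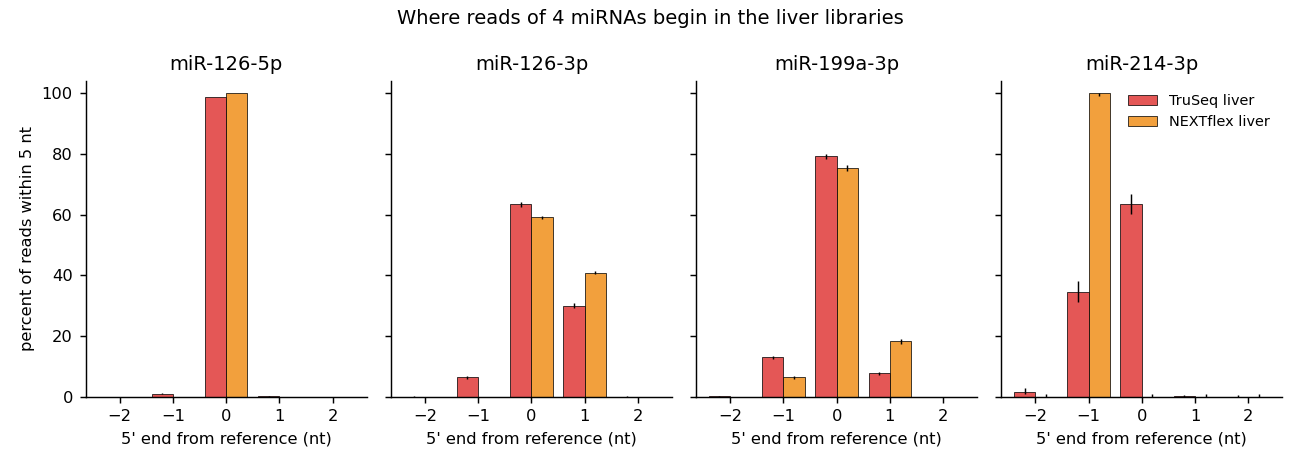
Share of the reads within 5 nt of the reference start that begin at each position from 2 nt upstream to 2 nt downstream, for 4 miRNAs in TruSeq and NEXTflex liver, with 95% exact binomial intervals. Of the miR-126-5p reads 98.8% or more begin at the reference start, and miR-126-3p has a second start at +1 with 29.9% and 40.9% of reads. miR-214-3p reads all begin at -1 in NEXTflex liver, where they come from 8 distinct read forms.

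In liver the commonest read length at the reference start was the same in both preparations for 3 members and differed for 3. It was 22 nt for miR-126-3p (56.8% of reads with TruSeq and 50.4% with NEXTflex) and 21 nt for miR-199a-3p (66.2% and 57.8%) in both. The commonest read of miR-126-5p was 21 nt long in both liver libraries, but it made up 91.1% of reads with TruSeq and 48.9% with NEXTflex. In MIN6 the order was the opposite, with 95.2%, 96.5% and 94.4% of reads with TruSeq and 99.2% with NEXTflex. The NEXTflex MIN6 share came from 380 reads of only 6 distinct read forms. The commonest miR-143-3p read was 20 nt with TruSeq (52.4%) and 22 nt with NEXTflex (39.1%). For miR-145-5p it was 23 nt with TruSeq (75.2%) and 20 nt with NEXTflex (68.6%), and for miR-199a-5p 23 nt (49.3%) and 22 nt (76.7%). The NEXTflex values of miR-145-5p and miR-199a-5p came from 14 and 9 distinct read forms, against 117 and 60 with TruSeq, so that few forms set those shares.

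**Figure D5:**
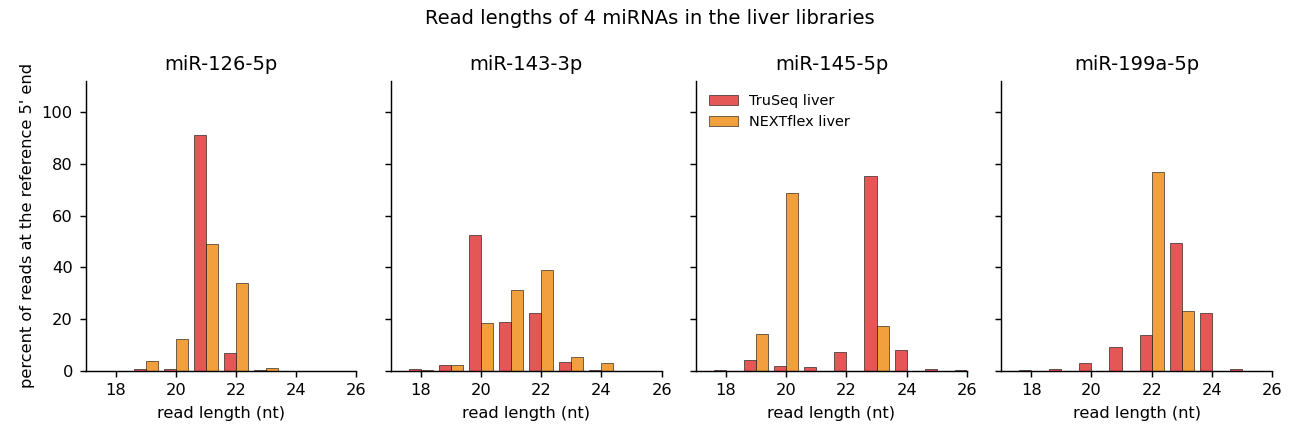
Read length at the reference 5′ end for 4 miRNAs in TruSeq and NEXTflex liver, as the percent of reads of each length. The commonest length is 21 nt in both libraries for miR-126-5p and differs between them for miR-143-3p (20 and 22 nt), miR-145-5p (23 and 20 nt) and miR-199a-5p (23 and 22 nt).

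Some reads carried bases at the 3′ end that did not match the genome, as adenylation or uridylation adds them, and the 2 preparations differed in both directions in liver. There, 24.8% of miR-143-3p reads with TruSeq and 44.0% with NEXTflex ended in unmatched T alone, which is U in the RNA, and 0.33% in unmatched A with either. miR-126-3p at its reference start ended in unmatched A in 19.9% and 28.9% of reads and in T in 9.67% and 12.6%. Its +1 form had the opposite order, with T in 32.6% and 49.5% and A in 13.0% and 17.2%. Not all MIN6 libraries shared this pattern. At the reference start T exceeded A in NEXTflex MIN6 (19.1% and 0.11%) and in 2 of 3 TruSeq MIN6 libraries, which held 91 and 152 reads. The v1.5 MIN6 libraries were divided, with T at 1.58%, 1.75% and 1.48% and A at 2.72%, 1.31% and 2.40%. On the +1 form T was at 26.7% to 33.3% in TruSeq MIN6 but at 0.11% in NEXTflex MIN6, where 10 distinct read forms were found. With v1.5 it was at 7.79%, 8.20% and 5.98%. On miR-126-5p unmatched 3′ bases of any kind made up 7.52% of reads with TruSeq and 33.3% with NEXTflex in liver. In MIN6 they made up 1.81%, 2.11% and 2.36% with TruSeq, 5.71%, 6.41% and 8.06% with v1.5 and 0.26% with NEXTflex. The NEXTflex MIN6 share came from 6 distinct read forms. In liver such tails were rarer with NEXTflex on miR-199a-5p (46.0% and 0%), miR-199a-3p (14.7% and 9.04%) and miR-145-5p (6.73% and 0%). They made up 32.2% of miR-214-3p reads at the reference start in TruSeq liver. On miR-214-3p reads starting 1 nt upstream they made up 22.8% with TruSeq and 64.1% with NEXTflex in liver. The NEXTflex liver shares of miR-199a-5p, miR-145-5p and this miR-214-3p form came from only 9, 14 and 8 distinct read forms. An untemplated base that happens to match the genome is not counted in these shares.

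Other miRNAs of vessels and mesenchyme did not move as 1 group. Of 12 on the list 11 were located, and with TruSeq 4 were over 10-fold higher in liver (15.3% of all entries were), 1 over 10-fold lower (40.5%) and 7 above a ratio of 1 in all. With NEXTflex 1 was over 10-fold higher (12.4% of all entries), 1 over 10-fold lower (50.2%) and 4 above 1. miR-100-5p was higher in liver in both, with 670 against 0.0779 RPMM in TruSeq and 99.0 against 0 RPMM in NEXTflex, and miR-455-5p was lower in both, with 3.21 against 340 RPMM and 0.139 against 350 RPMM. miR-221-3p, an endothelial miRNA, was 13.6-fold higher in liver with TruSeq and 7.97-fold with NEXTflex, with 1 RPMM added. miR-10b-5p had opposite directions, at 1602 RPMM in TruSeq liver and 0.313 RPMM in NEXTflex liver against 7.55 and 7.69 RPMM in MIN6. The summed level of the list was 4847 RPMM in TruSeq liver against 1464 to 1539 RPMM in TruSeq MIN6, but 3026 RPMM in NEXTflex liver against 4817 RPMM in NEXTflex MIN6.

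Over the 5 groups, entries near the members in the shape of their levels included hepatocyte and blood cell miRNAs. Likeness was measured as the root mean square difference of log2(RPMM + 1), each centred on its own mean, over 5 groups that share libraries and depth, and is a description. Members, their shifted starts and copies of entries already named were left out of the search. Nearest to miR-126-3p was miR-194-5p (from Mir194-1), at 0.52, and nearest to miR-126-5p was miR-192-5p, at 0.42, both hepatocyte miRNAs. Nearest to miR-145-5p were miR-150-5p, a lymphocyte miRNA, at 0.33 and miR-122-3p at 0.36. miR-143-3p had no close match, with miR-142-5p (a read starting 2 nt upstream) at 1.28 and miR-100-5p at 1.35. The second nearest to miR-126-3p was miR-101b-3p starting 1 nt downstream, at 0.85. Several were shifted reads of poorly characterized hairpins, namely miR-5115 for miR-126-5p (0.56) and miR-199a-5p (0.37), miR-5105 for miR-199a-3p (0.53) and miR-199a-5p (0.24), and miR-5109 for miR-214-3p (0.77). A shifted read of miR-122-3p was second for miR-199a-3p (0.57), and miR-181c-5p for miR-214-3p (0.86), whose level in NEXTflex liver entered as 0. The arms of miR-126 were 2.62 apart, farther than either was from its 2 nearest entries. miR-199a-3p and miR-199a-5p were 0.49 apart, nearer than miR-199a-3p was to either entry named for it.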

How the data were processed

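Small RNA-seq was measured in 9 libraries. Per the labels and the methods, the authors trimmed adapters with cutadapt and aligned the reads to mm9 with Bowtie (versions are not given in the sources used here), with the first and last 4 nt of NEXTflex reads removed, and deposited 1 alignment table per library whose counts are expected counts, because a read with several alignments is divided among them. The members and the lists of other cells' miRNAs were chosen with earlier results of these data known. An entry of the study's lists of abundant miRNAs was placed at the 5′ end whose weight in RPMM equalled its listed values within a relative tolerance of 3e-05, using the mapped-read totals that the study gives, with up to 2 RPMM accepted where a list gives 0, and 412 of 414 entries were placed, 397 of them at 1 position. The list values served only for this placement.

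Levels were recomputed from the files as RPMM. v1.5 and TruSeq MIN6 libraries (3 against 3) were compared over 412 entries with edgeR 4.0.16 (R 4.3.3) on counts rounded to whole numbers, with mapped reads as library sizes, Benjamini-Hochberg adjustment and a threshold of 0.05. DESeq2 1.42.0 was an alternative. Contrasts with 1 library a group were ratios with 1 RPMM added and a 10-fold line, with no test. Ratios without the constant carry exact (Clopper-Pearson) counting intervals of 95% on pooled reads, and a count of 0 was given a limit of 3 reads. Libraries of a kit differed beyond sampling noise, so none was counted as a duplicate. Groups came from the sample titles. The scripts were tested on simulated data. Named entries were the 7 members, their starts within 5 nt, and the 2 listed entries nearest to each member over the 5 groups, and entries of the lists as counts with examples. Scaling, the added constant, the start window, mismatches, low counts, the replicate block and leaving out each replicate were varied. The 3 TruSeq HiSeq libraries of MIN6 were not analysed here. Python 3.11.15, pandas 2.3.3 and SciPy 1.17.1 were used.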

Additional observations from a re-analysis of the deposited data

How the results depend on the processing

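All 7 members stayed over 10-fold higher in TruSeq liver, except with 5 RPMM added, when miR-214-3p was at 7.08 and 6 were past that line. With NEXTflex the count was 6, or 5 with 5 RPMM added and 7 with reads within 5 nt. The count of 2 members over 10-fold lower with NEXTflex than TruSeq in liver became 1 when scaled by the sum of all counts, with 5 RPMM added, or with 5′ ends within 5 nt. The folds of that contrast also depended on the scaling. Its median log2 ratio over all entries moved from -0.53 to -1.17 with reads on listed entries as library sizes. Scaled by the sum of all counts, 2 members had a ratio above 1, against 1 in the main setting. For liver over MIN6 the median log2 ratio over all entries moved from -2.06 to -0.90 with TMM factors in TruSeq and from -3.37 to -2.15 with DESeq2 size factors in NEXTflex. The constants 0.1 and 5 RPMM for comparing the 2 liver contrasts and the background of the liver list alone were chosen after seeing the data. Within TruSeq, 63 entries were over 10-fold higher and 167 lower in liver, and 85 and 136 with TMM factors. Between v1.5 and TruSeq, 358 entries and 3 members passed, with 343 to 354 entries and 3 members when 1 replicate was left out. DESeq2 called 351 entries and 2 members, without miR-143-3p, and TMM factors called 367 entries and 4 members, with miR-199a-3p added at -0.65. Their median log2 difference over all entries was 0.44 in the fit reported and 0.03 with TMM factors. miR-199a-5p, which passed in no setting, turned to -0.22 with TMM factors, and -0.30 with DESeq2 size factors, ranged from -0.23 (without TruSeq replicate 3) and -0.17 (without v1.5 replicate 3) to 0.54 (without v1.5 replicate 1) when 1 replicate was left out, and the cause was not tested. With the replicate block 362 entries and 3 members passed. Same-numbered libraries correlated at 0.27, 0.03 and 0.30 in their deviations from the kit means. TruSeq replicates 1 and 3 correlated best with the v1.5 library of the same number, and TruSeq replicate 2 with v1.5 replicate 3. Whether same-numbered libraries are paired is thus not settled, and the fit reported treats them as unpaired. The arm order of miR-126 was the same in all 9 libraries with reads within 5 nt and with alignments without mismatch. Few reads underlie the MIN6 values of miR-145-5p, miR-199a-5p and miR-214-3p, each with at most 10 reads per library. NEXTflex MIN6, the library with the largest sum of counts, held 0 of each, and the part of depth in this was not tested.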

Other observations

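The partner arms of 2 members, which are on neither list, were also located. miR-214-5p, the opposite arm of miR-214-3p, was at 5.09 RPMM (84 reads) in TruSeq liver, had 1 read in v1.5 MIN6 and was at 0 in TruSeq MIN6 and in both NEXTflex libraries. miR-199b-5p, the 5p arm of the hairpin that shares its 3p arm with miR-199a, was at 1.27 ± 0.50 RPMM in TruSeq MIN6 and 1.63 ± 0.04 RPMM in v1.5 MIN6 (SD, n = 3 each) and at 3.46 RPMM in TruSeq liver. In MIN6 its mean was above that of miR-199a-5p in both kits (0.605 and 0.650 RPMM), while in TruSeq liver miR-199a-5p, at 109 RPMM, was far above it.

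Reads from the strand opposite to Mir126a, where Mir126b is annotated, were found in all 3 v1.5 MIN6 libraries (21, 18 and 18 reads). The TruSeq MIN6 libraries held 0, 0 and 1, TruSeq liver held 2 and the NEXTflex libraries held 0. The counts were made by strand, so they do not enter the levels of miR-126-3p or miR-126-5p.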
